A study of Mus musculus with 79 samples.

Results

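Ucp1, Ucp2 and Ucp3 encode the uncoupling proteins, and Sln and Pln encode sarcolipin and phospholamban. All 5 were selected by name from the 22335 genes to which the array annotation gives a symbol, and each was measured by 1 probeset. Their transcripts were examined in quadriceps of male mice from the BXD family, a set of inbred lines bred from C57BL/6J and DBA/2J. Cohorts received chow (CD) for life or a high fat diet (HFD) from 8 weeks of age, and all were fasted overnight and sampled after perfusion at 29 weeks. Every array held RNA of about 5 males of one strain on one diet, pooled in equal amounts. There were 42 CD and 37 HFD arrays, from 40 BXD strains and both parents. Both diets were represented for 37 of the 42 strains, and the remaining 5 were on CD alone. A strain on one diet is therefore a single pool, and differences between its animals were not measured.

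Uncoupling proteins are carriers of the inner mitochondrial membrane. Ucp1 lets protons leak back in brown adipocytes, so that fuel is burned for heat. Ucp2 is made in many tissues, including macrophages and fat, whereas Ucp3 belongs mainly to skeletal muscle and brown fat and is known to rise when fasting delivers fatty acids to muscle. Sarcolipin and phospholamban are small membrane proteins that bind SERCA, the pump that returns calcium to the sarcoplasmic reticulum. Sarcolipin lets the pump spend ATP with less calcium moved, which gives heat, and phospholamban lowers the pump's affinity for calcium in heart and slow muscle.

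The values are scores, set so that the probesets of any array average 8.0 units with an SD of 2.0. They behave as logs of unknown base, so differences are given in score units and no folds are stated. The 8 skeletal muscle markers examined lay between 13.82 and 15.31 on every array and were brighter than at least 99.6% of probesets. Alb, a liver transcript singled out after its values were seen, stood at 11.59 on the BXD66 CD array and at 11.50 and 11.64 on the CD and HFD arrays of BXD51, and at no more than 9.03 elsewhere. The diet calls of the 5 genes stayed as given here when BXD51 and BXD66 were left out. Ucp3 was brighter than 96.7% of probesets and Ucp2 than 84.6%. Pln was brighter than 51.1%, Sln than 35.7% and Ucp1 than 26.9%, so that the last 2 were dim. Levels are not compared between genes, because probesets differ in response.

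The first comparison asked how each transcript changed with diet. Ucp2 was higher in HFD, while Ucp3, Sln and Pln were lower. Ucp1 was lower on HFD in 30 of 37 strains but far above the rest in 3 strains, and its mean difference was not called. By limma with batch as a term, 1 of the 5 genes was called higher and 3 were called lower at a Benjamini-Hochberg adjusted p below 0.05, and over all 35556 probesets 38.1% were called, 18.9% higher and 19.3% lower. Among probesets below the median brightness, which include Sln and Ucp1, 44.9% were called, 19.8% higher and 25.1% lower. In bulk muscle, fewer cells of a type and less RNA per cell cannot be told apart.

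**Figure D1:**
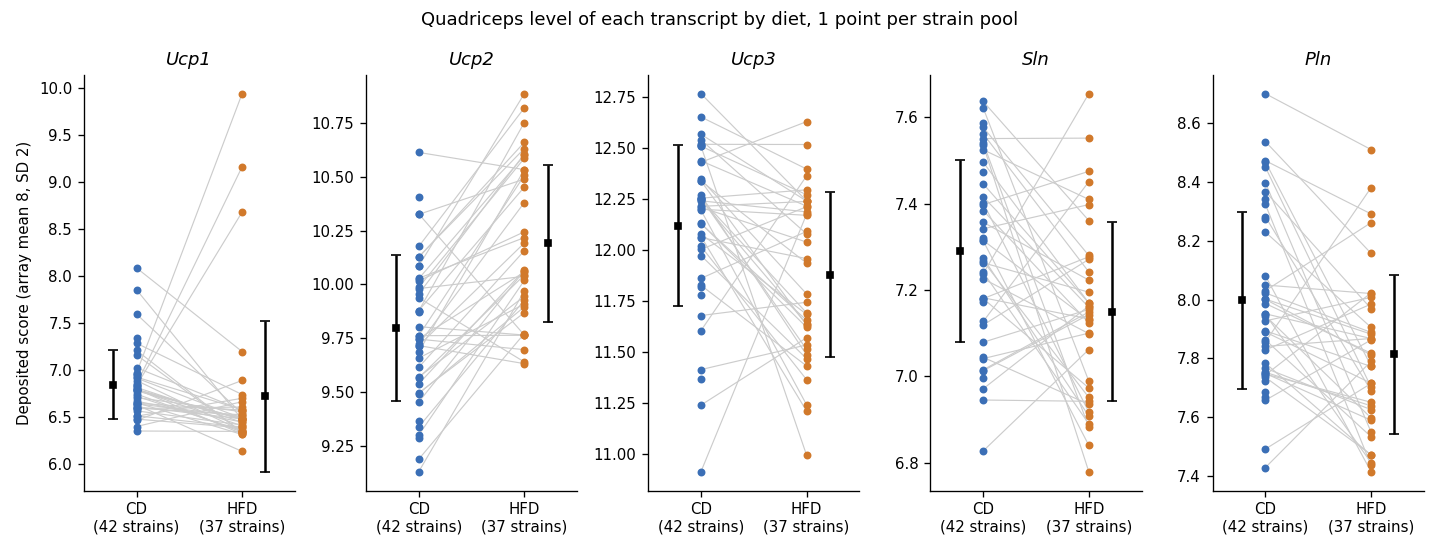
Score of each transcript (y axis, score units, a separate scale per panel) on CD (blue, 42 strains) and HFD (orange, 37 strains), with 1 point per strain pool, grey lines joining the 37 paired strains, and black squares with bars for the mean and SD. Ucp2 shifted upwards and Ucp3, Sln and Pln downwards with wide overlap, and 3 HFD pools of Ucp1 lay between 8.68 and 9.94.

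Ucp3 ranged from 10.91 to 12.76 on CD with a median of 12.21, and from 10.99 to 12.63 on HFD with a median of 11.93. The ranges overlapped almost fully, so the diet shift was small beside the spread between strains. The mean was 12.12 ± 0.39 (SD, n = 42) on CD and 11.88 ± 0.41 (SD, n = 37) on HFD, a shift of -0.24 units (95% interval -0.42 to -0.06, SE 0.089, limma adjusted p 0.0262). It was lower on HFD in 27 of 37 strains. BXD70 fell most, from 12.51 to 10.99, followed by BXD75, from 12.19 to 11.24. BXD68 went the other way, from 10.91 to 12.17, and BXD69 from 11.60 to 12.36. BXD68 was the lowest strain on CD and BXD70 the lowest on HFD. The call needed both batches together, and it was lost without a single strain. The difference was -0.22 in batch 1 alone (limma adjusted p 0.262) and -0.26 in batch 2 alone (limma adjusted p 0.13), and without BXD70 it was -0.20 (limma adjusted p 0.0569).

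Ucp2 ranged from 9.13 to 10.61 on CD with a median of 9.76, and from 9.63 to 10.89 on HFD with a median of 10.07. The distributions overlapped, but the lowest HFD pool, BXD103, stood above the lowest CD pools, BXD48 and C57BL/6J at 9.13 and 9.19. The mean rose from 9.80 ± 0.34 (SD, n = 42) to 10.19 ± 0.37 (SD, n = 37), which limma put at 0.40 units (SE 0.078, adjusted p 2.92e-05). The rise was seen in 31 of 37 strains and in each batch alone (0.45 and 0.35 units, limma adjusted p 0.00361 and 0.0166). BXD62 and BXD81 rose most, by 0.88 and 0.85 units. BXD98 and BXD70 went furthest the other way, with changes of -0.56 and -0.30 units. BXD70 was thus the strain with the largest fall of Ucp3 and the second largest of Ucp2.

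Pln ranged from 7.43 to 8.70 on CD with a median of 7.95, and from 7.42 to 8.51 on HFD with a median of 7.79. BXD85 was the highest strain on both diets. The mean fell from 8.00 ± 0.30 (SD, n = 42) to 7.81 ± 0.27 (SD, n = 37), or by limma -0.18 units (SE 0.064, adjusted p 0.0175), and 28 of 37 strains were lower on HFD. BXD51 and BXD65 had the largest falls, -0.89 and -0.85 units, and BXD71 the largest rise, 0.52 units. Sln, the other SERCA regulator, ranged from 6.83 to 7.64 on CD with a median of 7.29, and from 6.78 to 7.66 on HFD with a median of 7.15. The mean was 7.29 ± 0.21 (SD, n = 42) on CD and 7.15 ± 0.21 (SD, n = 37) on HFD, and limma gave -0.14 units (SE 0.047, adjusted p 0.0135), with 24 of 37 strains lower. BXD84 and BXD89 changed by -0.76 and -0.66 units, and BXD79 by 0.42 units to become the highest HFD strain. In single batches the limma adjusted p was 0.237 and 0.102 for Pln, and 0.301 and 0.0607 for Sln, with the same direction. The Sln difference was -0.11 units after the arrays were quantile normalized again, with a limma adjusted p of 0.0631. Sln was dim, and 25.1% of probesets below the median brightness were called lower. Of 5 heart and liver genes, Nppb was called lower, by -0.19 units, and no other was called. Nppb was picked out after its values were seen.

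Ucp1 behaved differently. On CD it ranged from 6.35 to 8.09 with a median of 6.79, and on HFD from 6.13 to 9.94 with a median of 6.48. On HFD 3 strains formed a separate cluster, DBA/2J at 9.94, BXD66 at 9.17 and BXD55 at 8.68, while the next strain, BXD100, was at 7.20. The same strains had been unremarkable on CD, at 6.97, 6.85 and 6.83. On CD the highest strains were BXD100, BXD83 and BXD97, at 8.09, 7.85 and 7.59, and their changes on HFD were -0.89, -1.38 and -1.06 units. In all, 30 of 37 strains were lower on HFD and 7 were higher, with a median change of -0.32 units.

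The mean of Ucp1 therefore joins 30 falls with 7 rises. It was 6.84 ± 0.36 (SD, n = 42) on CD and 6.72 ± 0.80 (SD, n = 37) on HFD, and limma, at -0.13 units (SE 0.136, adjusted p 0.493), did not call it. With robust regression, which gives outlying arrays less weight, the difference was -0.27 units (limma adjusted p 5.64e-06). That setting called 14180 of the 35556 probesets. A signed-rank permutation test over the 37 strains gave p = 0.00242. Both were chosen after the values had been seen.

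**Figure D2:**
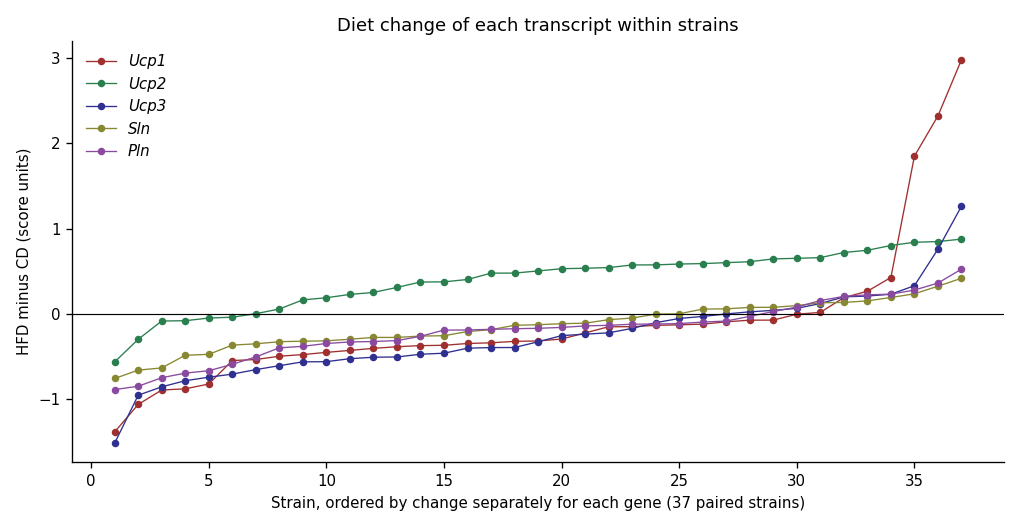
Change of each transcript (y axis, HFD minus CD in score units) in the 37 paired strains, ordered along the x axis separately for each gene from the largest fall to the largest rise. Ucp2 lies mostly above 0, the other genes mostly below, and the last 3 points of Ucp1 climb to 1.85, 2.32 and 2.98.

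The next comparison set Ucp3 beside the genes of fatty acid oxidation, since Ucp3 is commonly grouped with them. Of 24 such genes, 22 were called higher on HFD and none lower, with a median difference of 0.21 units, where 18.9% of all probesets were called higher and 19.3% lower, with a median of -0.001. Ech1 rose by 0.55 units and Decr1 by 0.46, both enzymes that handle unsaturated fatty acids. Fabp3, the fatty acid binding protein of muscle, rose by 0.42 units. Cpt1b, which admits long chain fatty acids to mitochondria, rose from 13.12 ± 0.12 (SD, n = 42) to 13.23 ± 0.09 (SD, n = 37). The 2 genes not called were Echs1 and Acot2, with differences of 0.06 and 0.17 units, both named after their values were seen.

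Within strains the mean of the list changed by 0.24 ± 0.19 units (SD, n = 37) and Ucp3 by -0.26 ± 0.50 (SD, n = 37). Ucp3 lay below the list in 33 of 37 strains, by -0.51 ± 0.51 units on average (two-sided permutation test exchanging signs within strains, p = 2e-05). In 24 strains Ucp3 fell while the list rose, in 9 both rose and in 3 both fell. BXD98 alone had a higher Ucp3 and a lower list. The 4 strains in which Ucp3 changed more than the list in the upward direction were BXD68, BXD98, BXD69 and BXD90. In 8 strains the CD and HFD arrays lay in different batches. The gap was -0.51 units among the 12 strains run entirely in batch 1 (p = 0.00091, permutation test) and -0.52 units among the 17 run entirely in batch 2 (p = 0.00533, permutation test). The directions of Ucp3 and of this list were known from earlier work on these arrays, so the gap is a size and not independent evidence.

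A relation between Ucp3 and the fatty acid oxidation genes across strains did not pass the test. All correlations were computed on values from which the batch mean of each diet had been removed. Over 22 relations of levels tested across strains, Ucp3 and the list mean had r = 0.10 on CD (permutation p = 0.525, adjusted p 0.55; rho = -0.03, p = 0.837, adjusted p 0.837). On HFD the values were r = 0.25 (permutation p = 0.14, adjusted p 0.205) and rho = 0.21 (p = 0.216, adjusted p 0.226). Without the 2 strains farthest from the list median r was 0.17 on CD and 0.33 on HFD, and in single batches it lay between -0.02 and 0.30. The CD value fell to -0.001 when the 2 parents were left out. The list genes differed in how far they went with one another. The median correlation of a list gene with the mean of the rest was 0.86 on CD and 0.81 on HFD, with a range of 0.27 to 0.95 on CD and 0.22 to 0.93 on HFD. The lowest on HFD was Crat, the carnitine acetyltransferase, named after its values were seen, which lay below the r of Ucp3 with the list.

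Acot2, a mitochondrial thioesterase that releases fatty acids from coenzyme A, was the list gene nearest to Ucp3, with r = 0.78 over the CD strains and 0.72 over the HFD strains. It was also the loosest member of the list on CD, at r = 0.27 with the rest. Eci2, an enoyl-CoA isomerase, came next with r = 0.46 and 0.53. Acot2 and Eci2 were picked out after their values were seen, and these correlations share arrays and carry no test.

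Ucp3 followed Pdk4. Pdk4 is the kinase that shuts pyruvate out of oxidation during fasting. Of 18782 genes with a current symbol, Pdk4 had the highest mean of the CD and HFD correlations with Ucp3, 0.875, a ranking given as a description. On HFD the relation had r = 0.87 and rho = 0.83 (permutation p = 1e-05 for each, the smallest that 100000 draws can give, adjusted p 3.67e-05 and 3.14e-05). It was 0.84 without the 2 farthest strains and 0.87 in each batch. On CD Pdk4 split the strains into 6 low and 36 high ones, and the relation held within both. It was r = 0.72 and rho = 0.69 in the 36 (permutation p = 1e-05 for each, adjusted p 4e-05 over 4 within-cluster relations), and r was 0.65 after leaving out the 2 farthest strains, 0.85 in batch 1 and 0.52 in batch 2. In the 6 strains r was 0.85 (exact permutation p = 0.0375, adjusted p 0.0375) and rho was 0.94 (exact permutation p = 0.0167, adjusted p 0.0167).

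The diet changes of both genes also went together. Among 11 relations of changes, Ucp3 and Pdk4 had r = 0.86 and rho = 0.79 over 37 strains (permutation p = 1e-05 for each, adjusted p 0.00011 and 3.67e-05). It was 0.83 without the 2 farthest strains, 0.58 in the 12 strains of batch 1, 0.93 in the 17 of batch 2 and 0.94 in the 8 that changed batch. The change of Ucp3 had r = 0.08 with the change of the fatty acid oxidation mean (permutation p = 0.631, adjusted p 0.631; rho = 0.13, p = 0.439, adjusted p 0.439). That value was 0.11 without the 2 farthest strains, -0.06 in batch 1, -0.05 in batch 2 and 0.68 in the 8 that changed batch. Pdk4 itself did not pass the diet test. It averaged 14.47 ± 0.24 (SD, n = 42) on CD and 14.43 ± 0.19 (SD, n = 37) on HFD (limma adjusted p 0.566), and was higher on HFD in 15 of 37 strains.

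**Figure D3:**
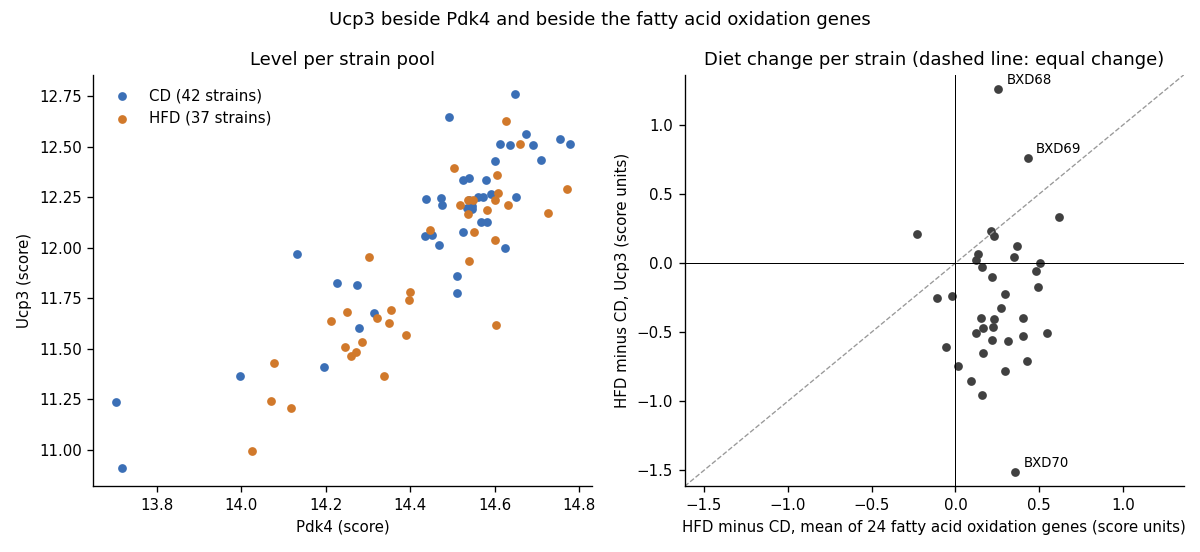
Left, Ucp3 (y axis, score) against Pdk4 (x axis, score) for each CD (blue) and HFD (orange) pool. Right, the diet change of Ucp3 (y axis) against that of the mean of 24 fatty acid oxidation genes (x axis), both in score units, with 1 point per paired strain. Ucp3 rises with Pdk4 on both diets, and on the right 33 of 37 strains lie below the dashed line of equal change.

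Of the 19 genes of the PPAR, PGC-1 and fasting response, 4 were called higher on HFD, 6 were called lower and 9 were not called. The median difference of these 19 genes was -0.04 units. Of all probesets, 18.9% were called higher and 19.3% lower. Angptl4, a lipase inhibitor induced by fatty acids, rose by 0.54 units and Acot1, a thioesterase of the cytosol, by 0.22 units. Trim63, a ubiquitin ligase of muscle wasting, fell by 0.34 units. Ucp3 had a median correlation of 0.45 with the list over CD strains and 0.58 over HFD strains, and r with single genes ran from -0.43 to 0.88 on CD. The fasting genes Trim63 (0.73 on CD, 0.79 on HFD) and Foxo1 (0.56 and 0.80) stood near the top, whereas the coactivator Ppargc1b (-0.43 and -0.10) and the receptor Ppard (-0.26 and -0.10) were the lowest on CD. Foxo1, Ppargc1b and Ppard were picked out after their values were seen.

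After Pdk4, the genes most like Ucp3 were Tacc2, Cblb, Tmem140 and Klhl38, with mean r of 0.83, 0.83, 0.82 and 0.80 over 42 CD and 37 HFD strains. Cblb encodes a ubiquitin ligase. Tacc2, Cblb and Klhl38 were lower on HFD, by -0.18, -0.18 and -0.19 units (limma adjusted p 0.0215, 0.0125 and 0.0254), and Tmem140 had a difference of -0.18 (limma adjusted p 0.191). The least similar genes were Sec14l5 and Angptl2, a secreted glycoprotein, with mean r of -0.73 and -0.71. These are descriptions over arrays that all the genes share.

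Ucp2 and Ucp3 are direct neighbours on chromosome 7 with no other protein-coding gene between them in the RefSeq order, and they moved in opposite directions with diet. Across strains they were positively related, and the relation passed the test on HFD. It had r = 0.32 on CD (permutation p = 0.0399, adjusted p 0.0676; rho = 0.26, p = 0.101, adjusted p 0.153). On HFD it had r = 0.45 (permutation p = 0.00567, adjusted p 0.0139) and rho = 0.41 (p = 0.012, adjusted p 0.024). Without the 2 strains farthest from the Ucp2 median r was 0.41 on CD and 0.44 on HFD, and it lay between 0.29 and 0.47 in single batches. Their changes had r = 0.34 (permutation p = 0.0422, adjusted p 0.058) and rho = 0.35 (p = 0.0344, adjusted p 0.0626). That r was 0.37 without the 2 farthest strains, 0.50 in batch 1, 0.29 in batch 2 and 0.38 in the 8 that changed batch.

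The 250 bases upstream of each start are shown because this pair differs in response while lying side by side. They come from RefSeq, build GRCm38.p6, plus strand, at chr7:100472741-100472990 for Ucp3 and chr7:100493108-100493357 for Ucp2. Capitals mark AGGTCA, the hexamer bound by nuclear receptors such as the PPARs, searched on both strands.
Ucp3: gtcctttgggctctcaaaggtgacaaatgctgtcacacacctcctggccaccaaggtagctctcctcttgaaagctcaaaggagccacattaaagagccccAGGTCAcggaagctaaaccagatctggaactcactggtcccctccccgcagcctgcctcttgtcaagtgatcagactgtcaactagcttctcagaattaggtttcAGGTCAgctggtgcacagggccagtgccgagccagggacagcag
Ucp2: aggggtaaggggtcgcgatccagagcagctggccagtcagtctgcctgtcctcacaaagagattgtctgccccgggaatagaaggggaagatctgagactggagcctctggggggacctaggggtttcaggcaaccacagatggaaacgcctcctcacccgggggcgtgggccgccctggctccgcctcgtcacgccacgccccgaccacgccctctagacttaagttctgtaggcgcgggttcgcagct
The Ucp3 window holds 2 hexamers and the Ucp2 window none, and the Ucp1 window holds 1 and the Pln window none. No window was available for Sln. Over 32851 windows of that length, 14% hold at least 1 hexamer, and the share holding 2 was not counted. The direct repeat of the hexamer with a single base between the copies was in none of these 4 windows and in 0.0335% of all. A match is only a match of letters.

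The genes most similar to Ucp2 were Mgll and Lipe, the lipases for mono- and diglycerides, Angptl4, the extracellular superoxide dismutase Sod3 and Fah, an enzyme of tyrosine breakdown. Their mean r over both diets was 0.60, 0.58, 0.58, 0.57 and 0.56, and each was higher on HFD, by 0.30, 0.30, 0.54, 0.20 and 0.31 units (limma adjusted p of at most 0.00462). The least similar gene was Arhgef17, the eighth protein-coding gene after Ucp2 on the chromosome, with r = -0.75 over CD strains and -0.64 over HFD strains. Arhgef17 had a strain effect (limma F, adjusted p 2.95e-07). Calm3, a calmodulin gene, had r of -0.63 and -0.54.

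Most markers of fat cells and of macrophages were called higher on HFD, as Ucp2 was. A relation between Ucp2 and the adipocyte mean was not tested. Of 12 adipocyte markers 8 were called higher and 1 lower, where 18.9% and 19.3% of all probesets were, led by Lep at 1.58 units, Cidec at 0.75 and Agpat2 at 0.65, and Adipoq rose by 0.54 units. The marker called lower was Cfd, the adipsin gene, by -0.61 units, named after its values were seen. The mean of the 12 markers ran from 9.13 to 10.61 on CD and from 9.18 to 10.66 on HFD. Of 14 macrophage markers 10 were called higher and 1 lower, against the same shares of all probesets, led by Cd68 at 0.39 units, Adgre1 at 0.37 and Ctss at 0.35. Their mean ran from 8.17 to 8.85 on CD and from 8.37 to 9.13 on HFD. BXD79 had the highest mean of both lists on HFD and also the highest Ucp2, 10.89, Ucp3, 12.63, and Sln, 7.66.

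Ucp2 and the macrophage mean had r = 0.29 on CD (permutation p = 0.059, adjusted p 0.0928; rho = 0.23, p = 0.15, adjusted p 0.194) and r = 0.43 on HFD (permutation p = 0.00807, adjusted p 0.0164; rho = 0.37, p = 0.0262, adjusted p 0.048). Without the 2 farthest strains these were 0.10 and 0.33. In single batches they were -0.10 and 0.52 on CD, and 0.55 and 0.35 on HFD. Their changes had r = 0.53 (permutation p = 0.00073, adjusted p 0.00161) and rho = 0.47 (p = 0.00408, adjusted p 0.00898). That r was 0.44 without the 2 farthest strains, 0.06 in the 12 strains of batch 1, 0.61 in the 17 of batch 2 and 0.84 in the 8 that changed batch, so the pooled value was not seen in batch 1. The part of either marker list in the rise of Ucp2 was not tested.

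Among 9 carriers of the same family, 4 were called higher on HFD and 1 lower, where 18.9% and 19.3% of all probesets were. The citrate carrier Slc25a1 rose by 0.25 units and the adenine nucleotide carrier Slc25a5 by 0.19 units. Slc25a14, also known as an uncoupling protein of brain, fell by 0.14 units. The median of the 9 was 0.04 units.

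Ucp1 rose with the mean of the brown fat markers across CD strains, while single markers followed Ucp1 less closely. Their r with Ucp1 on CD ran from 0.09 to 0.48, with a median of 0.30. With the 5 heart and liver genes r ran from 0.06 to 0.29 on CD, with a median of 0.21. These single values carry no test. The relation with the mean of 9 brown adipocyte markers had r = 0.65 and rho = 0.64 over 42 strains (permutation p = 2e-05 and 1e-05, adjusted p 6.29e-05 and 3.14e-05), and it was 0.64 without the 2 farthest strains, 0.53 in batch 1 and 0.68 in batch 2. On HFD the 34 strains of the lower cluster had r = 0.36 (permutation p = 0.0373, adjusted p 0.0375) and rho = 0.42 (p = 0.0132, adjusted p 0.0167). In those 34 strains r was 0.30 without the 2 farthest, 0.40 in batch 1 and 0.35 in batch 2. With the mean of the 12 adipocyte markers, Ucp1 had r = 0.13 on CD (permutation p = 0.403, adjusted p 0.443; rho = 0.22, p = 0.16, adjusted p 0.196), while r was 0.15 after leaving out the 2 farthest strains, and 0.22 and 0.11 in single batches. In the 34 HFD strains that relation had r = 0.37 (permutation p = 0.0309, adjusted p 0.0375) and rho = 0.49 (p = 0.00336, adjusted p 0.00672), while r was 0.38 after leaving out the 2 farthest strains, and 0.48 and 0.26 in single batches.

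The 3 HFD pools with high Ucp1 were not alike in the other markers. Cidea, a lipid droplet protein of brown fat, was 8.84 in DBA/2J, 7.52 in BXD66 and 7.73 in BXD55, against an HFD median of 7.36. Elovl3, a fatty acid elongase of brown fat, was 7.01, 7.40 and 6.84 in that order, against a median of 6.75. Other markers of the list lay on both sides of their HFD medians. Dio2 was 7.86, 7.33 and 7.44 in the same order, against 7.50, and Cox8b was 14.24, 14.32 and 14.35, against 14.31. Dio2 and Cox8b were picked out after their values were seen. The mean of the 9 markers was 8.69, 8.52 and 8.46, against an HFD median of 8.40, with all HFD pools between 8.19 and 8.69. DBA/2J was thus the highest HFD pool in Ucp1, in Cidea and in the list mean. The highest Cidea of all, 9.21 in BXD56 on CD, came with a Ucp1 of 6.92, near the CD median of 6.79. BXD56 also had the highest list mean on CD, 8.67. Against the 18.9% and 19.3% of all probesets called higher and lower, none of the 9 markers was called higher on HFD and Lhx8, a transcription factor, was called lower, by -0.17 units, and the list median was -0.03 units. The part of brown fat in the Ucp1 values was not tested.

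**Figure D4:**
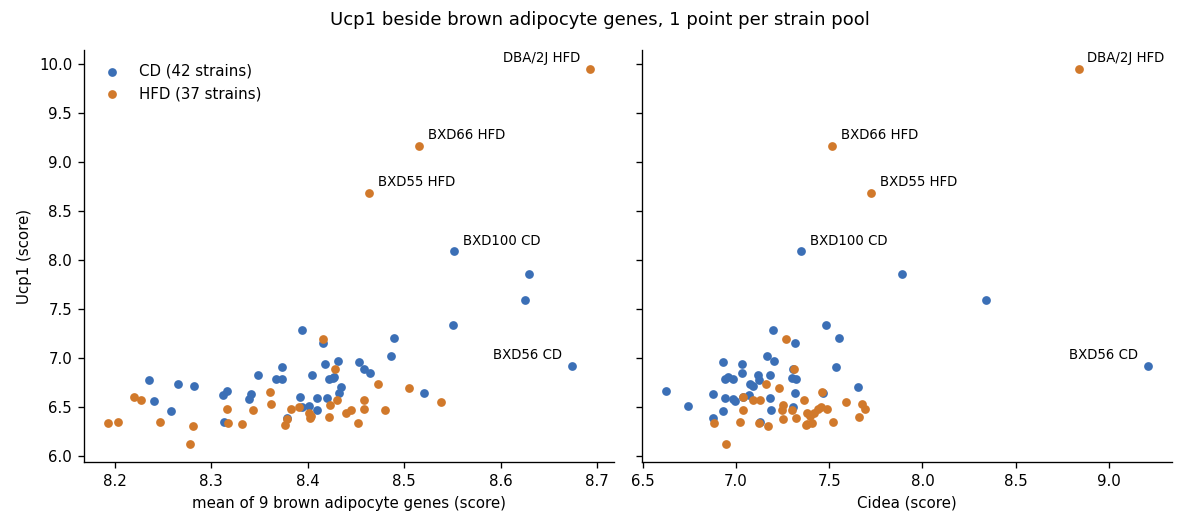
Ucp1 (y axis, score) against the mean of 9 brown adipocyte genes (left, score) and against Cidea (right, score), with 1 point per CD (blue) or HFD (orange) pool. DBA/2J, BXD66 and BXD55 on HFD stand above all other pools in Ucp1, and BXD56 on CD is high in Cidea at 9.21 with Ucp1 at 6.92.

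The genes most like Ucp1 over both diets were Cidea, Acsm3, Otop1, Elovl3 and Celf4, with mean r of 0.56, 0.51, 0.48, 0.44 and 0.42. Cidea, Otop1, a proton channel, and Elovl3 were in the brown fat list. Acsm3 is a mitochondrial acyl-CoA synthetase and Celf4 an RNA binding protein. The HFD part of these values depended on the 3 separate strains. In the other 34 HFD strains r with Ucp1 was 0.07 for Cidea, 0.12 for Elovl3 and -0.03 for Celf4, but 0.64 for Otop1 and 0.38 for Acsm3. The least similar genes were the phosphatase Ptpn22 and the chemokine Ccl8, with mean r of -0.45 and -0.43. In the same 34 HFD strains r was -0.09 for Ptpn22 and -0.27 for Ccl8, against -0.53 and -0.52 over all 37.

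Phospholamban followed the pump of slow muscle. Pln and Atp2a2, which encodes SERCA2, had r = 0.65 and rho = 0.65 on CD and r = 0.76 and rho = 0.76 on HFD (permutation p = 1e-05 for each, adjusted p 3.67e-05 for r and 3.14e-05 for rho). Without the 2 farthest strains r was 0.60 and 0.70, and in single batches it lay between 0.64 and 0.80. Their changes had r = 0.63 (permutation p = 5e-05, adjusted p 0.000183) and rho = 0.68 (p = 1e-05, adjusted p 3.67e-05), and r was 0.58 without the 2 farthest strains, 0.81 in batch 1, 0.53 in batch 2 and 0.47 in the 8 that changed batch. Atp2a2 itself ranged from 10.33 to 12.78 on CD and from 10.34 to 12.48 on HFD, and its difference between diets was 0.03 units (SE 0.138, limma adjusted p 0.88).

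Pln tracked the slow fibre genes to a like degree. With the mean of 10 such genes it had r = 0.64 and rho = 0.67 on CD and r = 0.70 and rho = 0.71 on HFD (permutation p = 1e-05 for each, adjusted p 3.67e-05 for r and 3.14e-05 for rho). Without the 2 farthest strains r was 0.61 and 0.64, and in single batches it lay between 0.60 and 0.76. For the changes r was 0.64 (permutation p = 3e-05, adjusted p 0.000165) and rho 0.70 (p = 1e-05, adjusted p 3.67e-05), with 0.63 without the 2 farthest strains, 0.79 in batch 1, 0.60 in batch 2 and 0.40 in the 8 that changed batch. BXD85, the highest Pln strain, had Myh7, the slow myosin heavy chain, at 10.43 on CD and 9.98 on HFD, against medians of 9.21 and 9.06. BXD70, the lowest on CD, had Myh7 at 8.43.

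Of the 10 slow fibre genes 2 were called between diets, or 20%, against 38.1% of all probesets. Tpm3 was called higher, by 0.16 units, Myh7b was called lower, by -0.09 units, and the other 8 were not called, with a list median of -0.13 units. Myh7 averaged 9.34 ± 0.89 (SD, n = 42) on CD and 9.27 ± 0.74 (SD, n = 37) on HFD (limma adjusted p 0.782). The list mean ran from 8.71 to 10.71 on CD and from 8.36 to 10.59 on HFD. The part of fibre composition in the Pln values was not tested. Of 11 fast fibre genes 1 was called, or 9.09%, Tnni2, a fast troponin, at -0.09 units.

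The genes most like Pln were Atp2a2, Casq2, Ldhb, Bdh1 and Actn2, with mean r of 0.70, 0.69, 0.68, 0.68 and 0.68. Casq2 is the calcium store protein of slow and cardiac muscle, Ldhb the lactate dehydrogenase of oxidative fibres, Bdh1 a ketone body enzyme and Actn2 an actinin of the Z disc. The least similar genes were Dhdh, a sugar dehydrogenase, and Ppp1r3a, the glycogen targeting subunit of a phosphatase, with mean r of -0.63 and -0.58. Pln and Casq2 parted with diet, since Casq2 rose by 0.27 units (limma adjusted p 0.0249) while Pln fell.

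Of 20 SERCA and calcium handling genes measured, 2 were called higher on HFD and 3 lower, with a list median of 0.001 units. The share called was 25%, where 38.1% of all probesets were called. The second gene called higher was Atp2a3, the SERCA of non-muscle cells, by 0.08 units (limma adjusted p 0.003), named after its values were seen. Besides Casq2, the largest called differences were those of Ryr1, the calcium release channel, and Srl, a calcium binding protein of the reticulum, at -0.10 units each. Atp2a1, the fast muscle SERCA, was at 15.19 on both diets (limma adjusted p 0.848), and Mrln, a further SERCA peptide picked out here for comparison, was at 11.45 on CD and 11.43 on HFD (limma adjusted p 0.694). Neither Atp2a1 nor Atp2a2 was called.

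**Figure D5:**
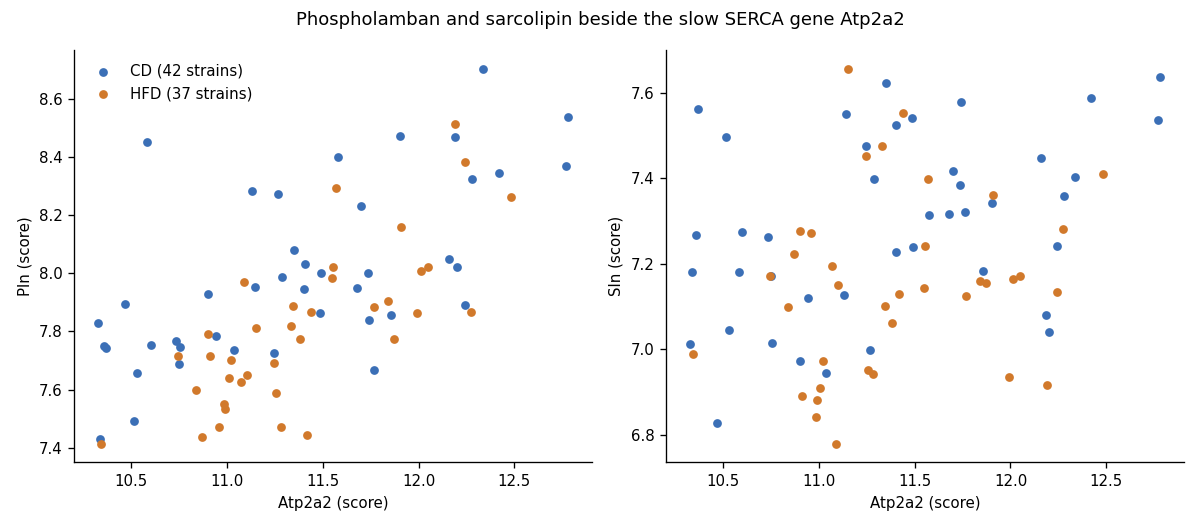
Pln (left) and Sln (right) on the y axis against Atp2a2 on the x axis, all in score units, with 1 point per CD (blue) or HFD (orange) pool. Pln rises with Atp2a2 on both diets, while Sln spreads widely at every level of Atp2a2.

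Sarcolipin and Atp2a2 were related on CD. Their relation had r = 0.41 and rho = 0.40 on CD (permutation p = 0.00819 and 0.00814, adjusted p 0.0164 and 0.0199), while r was 0.32 after leaving out the 2 farthest strains, and 0.46 and 0.39 in single batches. On HFD it had r = 0.21 (permutation p = 0.218, adjusted p 0.266) and rho = 0.23 (p = 0.171, adjusted p 0.198), while r was 0.16 after leaving out the 2 farthest strains, and 0.32 and 0.09 in single batches. The CD and HFD values of r were not tested against each other, nor against those of Pln. A relation between Sln and Pln did not pass the test on either diet, with r = 0.19 on CD (permutation p = 0.218, adjusted p 0.266; rho = 0.23, p = 0.138, adjusted p 0.19) and r = 0.22 on HFD (permutation p = 0.189, adjusted p 0.26; rho = 0.27, p = 0.105, adjusted p 0.153). Without the 2 farthest strains these were 0.11 and 0.38, and in single batches they were -0.001 and 0.30 on CD and 0.26 and 0.19 on HFD. Their changes had r = 0.20 (permutation p = 0.234, adjusted p 0.286; rho = 0.16, p = 0.331, adjusted p 0.364), which was 0.14 without the 2 farthest strains, 0.05 in batch 1, 0.26 in batch 2 and 0.10 in the 8 that changed batch.

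With the slow fibre mean Sln had r = 0.35 on CD (permutation p = 0.0219, adjusted p 0.0402; rho = 0.34, p = 0.0297, adjusted p 0.0503) and r = 0.19 on HFD (permutation p = 0.255, adjusted p 0.295; rho = 0.21, p = 0.205, adjusted p 0.225). Without the 2 farthest strains these were 0.31 and 0.09, and in single batches 0.45 and 0.31 on CD and 0.31 and 0.07 on HFD. For the diet changes, Sln had r = 0.38 with Atp2a2 (permutation p = 0.0211, adjusted p 0.0387; rho = 0.33, p = 0.046, adjusted p 0.0632) and r = 0.36 with the slow fibre mean (permutation p = 0.0271, adjusted p 0.0426; rho = 0.34, p = 0.0399, adjusted p 0.0626). Without the 2 farthest strains these were 0.29 and 0.36, and they were 0.25 and 0.22 in batch 1, 0.21 and 0.20 in batch 2, and 0.51 and 0.41 in the 8 that changed batch. No gene stood close to Sln. The most similar were Runx1, a transcription factor, Ttc9, Ccni, a cyclin, Klra3, a receptor of killer cells, and Csrp1, a LIM protein, with mean r between 0.41 and 0.44. The least similar, Taf12 of the general transcription machinery and Gm16490, had mean r of -0.41 and -0.40.

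The last comparisons concerned strain. The limma F-test over the 37 paired strains called 1 of the 5 genes, Ucp2 (F = 3.17, adjusted p 0.00525), and over all probesets 13.6% were called. The limma adjusted p was 0.0906 for Pln, and 0.0425 without BXD51 and BXD66. It was 0.19 for Ucp3, 0.331 for Sln and 0.418 for Ucp1. Ucp2 was highest in BXD84 and BXD60 on CD, at 10.61 and 10.41, and in BXD79 and BXD99 on HFD, at 10.89 and 10.82. The lowest HFD strains were BXD103 and BXD70, at 9.63 and 9.64. The SD over CD strains was higher than that of 91.0% of probesets for Ucp3, 88.8% for Ucp1, 87.0% for Ucp2, 84.0% for Pln and 72.5% for Sln. On HFD the shares were 90.9% for Ucp3, 99.6% for Ucp1, 88.1% for Ucp2, 79.7% for Pln and 67.6% for Sln. This SD also holds the noise of single pools and arrays, so it does not by itself show a strain effect. With 1 pool per strain and diet, neighbouring strains in these orders could not be told apart.

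Strains high in Ucp2 on one diet tended to be high on the other. CD and HFD values had r = 0.52 (permutation p = 0.0011, adjusted p 0.0055 over 5 genes) and rho = 0.54 (p = 0.00081, adjusted p 0.00405), and r was higher than that of 93.3% of probesets, whose median was 0.14. It was 0.515 without the 2 farthest strains, 0.735 in the 12 strains of batch 1, 0.41 in the 17 of batch 2 and 0.53 in the 8 that changed batch. For Ucp3 r was 0.23 (permutation p = 0.179, adjusted p 0.299) and rho was 0.40 (p = 0.0142, adjusted p 0.0356). Its r was 0.34 without the 2 farthest strains, 0.66 in batch 1, -0.07 in batch 2 and 0.35 in the 8 that changed batch. For Pln r was 0.31 (permutation p = 0.0629, adjusted p 0.157; rho = 0.25, p = 0.142, adjusted p 0.237), and it was 0.095 without the 2 farthest strains and 0.13, 0.38 and 0.58 in the same 3 sets of strains. For Sln r was 0.15 (permutation p = 0.377, adjusted p 0.449; rho = 0.17, p = 0.305, adjusted p 0.381), and it was 0.09 without the 2 farthest strains and 0.27, 0.30 and 0.05 in those sets. For Ucp1 the 34 strains of the lower HFD cluster had r = 0.34 (permutation p = 0.0511) and rho = -0.03 (p = 0.856), both unadjusted.

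C57BL/6J was lower than DBA/2J in all 5 genes on the mean of both diets. Ucp2 stood at 9.19 on CD and 9.77 on HFD in C57BL/6J, and at 10.13 and 10.63 in DBA/2J. This gap of -0.90 units (SE 0.238, adjusted p 0.0445 by limma) was called, whereas 1.26% of all probesets were. It borrows the spread of the other strains, and with the 4 parental arrays alone the limma adjusted p was 0.269. The differences of the other genes were -1.90 units for Ucp1, -0.62 for Pln, -0.61 for Ucp3 and -0.38 for Sln, none called (limma adjusted p between 0.118 and 0.71). The Ucp1 difference came from the HFD arrays, 6.44 and 9.94, against 6.67 and 6.97 on CD.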

How the data were processed

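RNA of quadriceps was hybridised to Affymetrix Mouse Gene 1.0 ST arrays, 1 pool of about 5 males per strain and diet. The sample titles name 2 batches (18 and 24 CD arrays, 17 and 20 HFD arrays), without saying which step they mark. The deposited values are scores that the authors made, per the labels with Affymetrix Expression Console, whose version and summarisation are not given in the sources used here. Array means were all 8.0 and array SDs all 2.0, a scaling that removes differences in total signal between arrays, and the number of arrays limits the precision. Array pairs correlated between 0.961 and 0.992 and no 2 arrays were identical. The table gave 1 column per array, and the chow column BXD92 was taken as the sample BXD92a, its only match.

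The diet difference (HFD minus CD) was fitted with limma 3.58.1 in R 4.3.3 over 35556 probesets in 79 arrays, with batch as a term and Benjamini-Hochberg adjustment, and calls required an adjusted p below 0.05. Strain was tested with the limma F-test over the 37 paired strains, with diet and batch as terms, and the parents were contrasted in that fit. Each strain pool was 1 replicate. P-values therefore measure the spread between strain pools. Correlations used two-sided permutation tests of 100000 draws (exact for 6 strains), and strains falling into separate clusters were taken within clusters of at least 6. The gene probeset with the highest mean was used, and every member had 1. The scripts were tested on simulated data. The 5 genes, the lists and the comparisons were chosen with earlier results of these data known. Named genes were, per gene, the 5 most and 2 least similar, the 3 largest called differences of each list, Pdk4, Atp2a1, Atp2a2, Cpt1b, Ech1, Myh7, Lep and Adipoq, and per gene and diet the 2 highest and lowest strains and the 2 largest changes in each direction. Others are named as chosen afterwards where they occur. Lists of smooth muscle genes (3 of 6 higher) and of heart and liver genes (1 of 5 lower) and the skeletal muscle list (1 of 8 higher) were also counted, where 18.9% of all probesets were called higher and 19.3% lower. CD and HFD arrays of a strain were paired by the strain name in the labels. Their deviations from the diet means correlated with a median of 0.214 (range -0.136 to 0.395) over 37 pairs, of which 33 were above 0.1. Promoter windows came from RefSeq, build GRCm38.p6. Other steps ran in Python 3.11.15 (scipy 1.17.1 for tests, scikit-learn 1.9.0 for mixtures, pandas 2.3.3 and numpy 2.4.6 for tables).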

Additional observations from a re-analysis of the deposited data

How the results depend on the processing

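The diet difference of Ucp2 was called under every alternative run, with mean differences between 0.349 in batch 2 alone and 0.453 in batch 1 alone, a median change of 0.503 in the signed-rank permutation test, and between 0.381 and 0.42 with 1 strain left out. Ucp3 was -0.216 in batch 1 alone, -0.258 in batch 2 alone and between -0.276 (without BXD68) and -0.204 (without BXD70, limma adjusted p 0.0569) with 1 strain left out. Sln was -0.114 in batch 1 alone, -0.161 in batch 2 alone and -0.109 when quantile normalized again, and Pln was -0.161 and -0.202 in the single batches. None of these values of Ucp3, Sln and Pln was called, except that of Ucp3 without BXD68. With 1 strain left out, Sln lay between -0.156 and -0.124, Pln between -0.203 and -0.165, and Ucp1 between -0.209 and -0.095. Ucp1 was -0.269 with robust regression and had a median change of -0.317 in the signed-rank permutation test, both past the threshold. The strain effect of Pln had an adjusted p of 0.0425 without BXD51 and BXD66 and 0.0444 over probesets at or above the median mean. The CD correlation of Ucp3 with fatty acid oxidation genes was -0.001 (permutation p = 0.995) in BXD strains only. Probesets called between diets numbered 13551, but 4491 in batch 1, 8691 in batch 2 (fewer arrays) and 5292 over the 17778 probesets at or above the median mean (fewer probesets), and from 12756 to 14441 under the others. Centring on array medians gave 8199 higher and 5758 lower calls, against 6703 and 6848. With strain as a replicate block, the differences were -0.115 for Ucp1, 0.394 for Ucp2, -0.254 for Ucp3, -0.132 for Sln and -0.196 for Pln, and 14441 probesets were called, so the pairing changed no call of the 5 genes. The methods' t-test called 16450 probesets unadjusted and 13650 after Benjamini-Hochberg adjustment. Weaker relations crossed the threshold in places. In BXD strains only, Sln and slow fibre genes on CD had r = 0.327 (adjusted p 0.068) and Ucp2 and macrophage genes r = 0.353 (adjusted p 0.0466). The changes of Ucp3 and Ucp2 had r = 0.35 (adjusted p 0.0462) with batch means kept. Those of Sln had r = 0.34 with slow fibre genes and 0.353 with Atp2a2 without BXD63, and 0.352 and 0.363 when quantile normalized again, none past the threshold. The agreement of Pln between diets was 0.401 (permutation p = 0.0163) without BXD51 and BXD66. The cause of these shifts was not tested. An alternative probeset gave no value, since each gene had 1, and Ucp1 and Sln lay below the median brightness and had no value in that filter. Robust regression, the signed-rank test and the settings without BXD51 and BXD66 were chosen after seeing the data.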
